A study of Mus musculus with 16 samples.

Results

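Hippocampal RNA levels were compared between arrays with low and arrays with high array numbers, in female 3xTg-AD mice that had all reached 14 months of age. The array number is the number that opens each array's description in the labels, and the labels do not say what it records. Low numbers were 1 to 6 and high numbers were 10 to 24. All 16 of the 16 arrays in the series entered, 6 of them low and 10 high, with 1 array for each separately numbered animal. The low arrays held 4 animals on the control diet, arrays 1 to 4, and 2 animals on the pioglitazone (PIO) diet, arrays 5 and 6. The high arrays held 4 control animals, arrays 10 to 13, and 6 PIO animals, arrays 17 to 24. The PIO diet carried 84 ppm of the drug, or about 18 mg per kg of body weight a day, and was fed from 10 months of age for some 14 weeks. PIO is a thiazolidinedione that activates the nuclear receptor PPAR gamma. The 3xTg-AD mouse carries transgenes for mutant human amyloid precursor protein and tau, both driven in neurons by a Thy1 cassette. Every group shared these alleles, so the series holds no mouse without them. Animals are called control 1 to 8 and PIO 9 to 16, as their subject numbers run in the labels.

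Abca1 and Scd1, the genes set for this comparison at the outset with earlier results of these data known, act in lipid handling. Oxysterols activate the liver X receptors (LXR), which pair with RXR on direct repeats in DNA and raise genes for cholesterol export, such as Abca1, and for fatty acid synthesis, through Srebf1 and by themselves. In brain, astrocytes and microglia use this programme to load cholesterol and phospholipid onto apolipoprotein particles. A separate branch, under the protein made by Srebf2, controls cholesterol synthesis and uptake.

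Differences are low minus high array numbers on the log2 scale of the deposited values. They were fitted across 12266 genes with limma, with diet as a term, and in each diet alone. A gene passed the test when its Benjamini-Hochberg adjusted p was under 0.05. Across arrays Slc17a7, the vesicular glutamate transporter of excitatory neurons, was between 12.90 and 13.91 and Wfs1, a marker of CA1, between 10.73 and 11.52. Means over lists of subfield markers, as deviations from the mean of all arrays, were lowest in PIO animals 14 and 15. They were -0.30 and -0.37 for CA1 and -0.30 and -0.26 for dentate granule cells. Array medians lay between 5.64 and 5.76, and all pairs of arrays correlated with r of 0.979 to 0.996. With the mean of each diet removed, the array most like a given array came from the same range of numbers for 7 of 16 arrays. The first principal component of those values held 35.65% of the variance, and its leading genes (Kcnj13, Kcne2, Folr1) are choroid plexus genes. A second code, at the end of each description, has 3 forms. The most frequent form covered 11 arrays, namely 3 of 4 low control, 2 of 4 high control, both low PIO and 4 of 6 high PIO arrays. Of 7 measures per array, 5 from control probe sets and the other 2 the median and interquartile range of all values, 0 differed between the ranges at an adjusted p under 0.05 by an exact two-sided permutation test within diets, and 1 did at an unadjusted p under 0.05. That 1 was the 3′ minus 5′ difference of Actb, which follows RNA integrity and was 0.063 log2 units larger in low arrays (exact p = 0.0173, adjusted p = 0.121).

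With diet as a term, 1 of 12266 genes passed the test, and it was lower in low arrays (0.00815% of genes). That gene was Usp2, a ubiquitin-specific protease whose transcript cycles with the circadian clock. At an unadjusted p under 0.05, 700 genes were higher (5.71%) and 549 lower (4.48%), or 1249 together, where 613 would be expected by chance. When every array was shifted to a common median, 1098 of 1409 such genes were higher, and after quantile normalization 949 of 1437 were, so the balance of directions moved with the scaling. The median difference over all genes was -0.0017.

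The level of Usp2 was 10.99, 10.74, 10.98 and 11.01 in control animals 1 to 4 and 11.28, 11.32, 11.38 and 11.26 in control animals 5 to 8. It was 10.84 and 10.83 in PIO animals 9 and 10, and in the 6 high PIO arrays the lowest value was 11.05, the median 11.21 and the highest 11.34. In each diet every low array therefore lay below every high array. Usp2 fell by 0.38 in low arrays (SE 0.050, 1.30-fold, adjusted p = 0.0162), and the difference was -0.38 (SE 0.071, adjusted p = 0.541) in control animals alone and -0.38 (SE 0.077, adjusted p = 0.226) in PIO animals alone, so it passed in neither diet by itself. Both of its probe sets had this sign. The adjusted p was 0.189 within the most frequent array code and 0.177 when probe sets of shared sequence were left out, with differences of -0.39 and -0.37. It was also above the threshold without control animal 6 (0.0644), control animal 7 (0.0656), PIO animal 9 (0.0635) or PIO animal 10 (0.117). With a common median the difference was -0.35 (adjusted p = 0.0621), and without PIO animals 14 to 16 it was -0.36 (adjusted p = 0.170). With the microglial or the endothelial list mean as a covariate, chosen after seeing the data, the adjusted p of Usp2 was 0.0630 and 0.124.

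**Figure D1:**
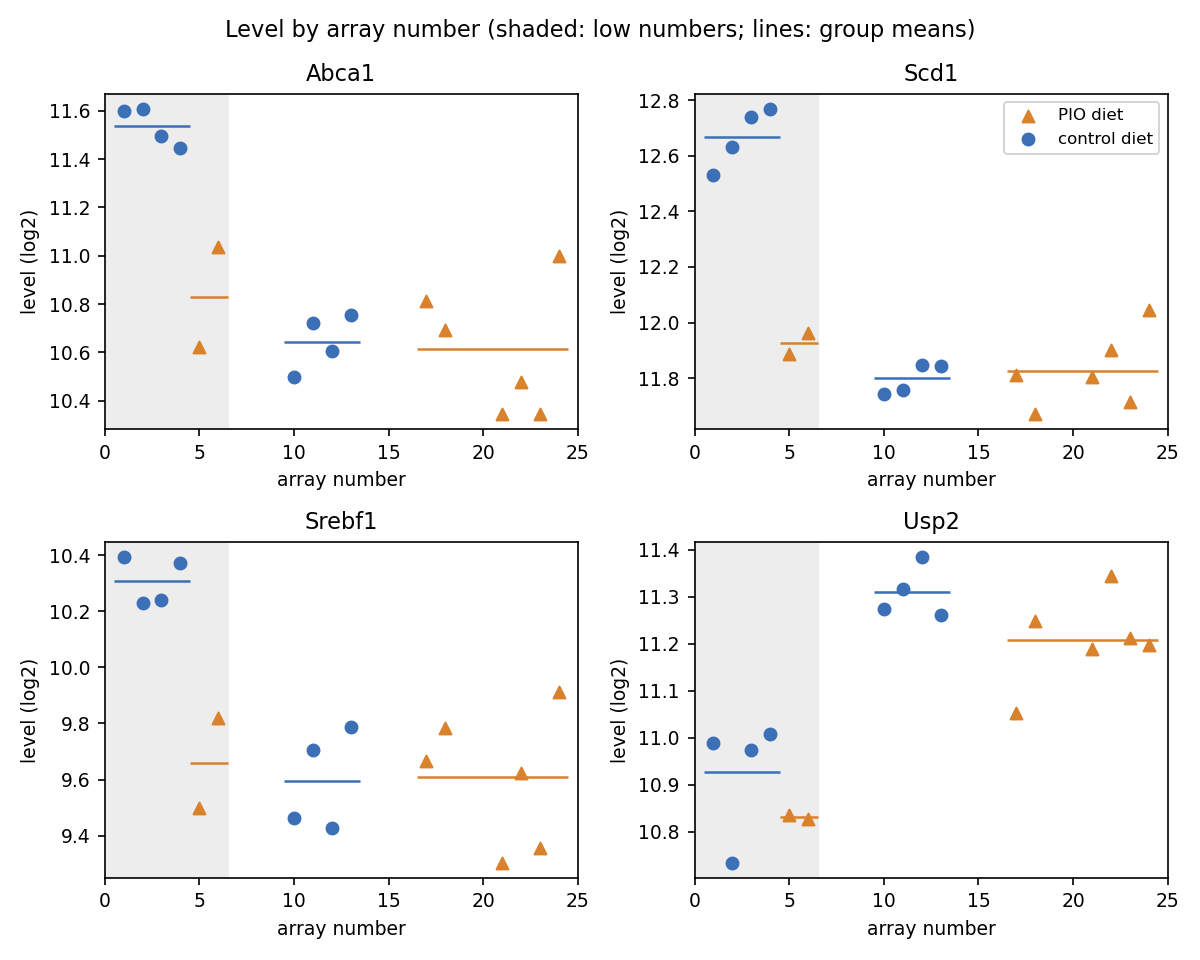
Level (log2) of Abca1, Scd1, Srebf1 and Usp2 in each of 16 hippocampi, plotted against array number, with circles for the control diet, triangles for the PIO diet, lines for the means of each diet and range, and shading over the low numbers. Control animals 1 to 4 stand above every other array for Abca1, Scd1 and Srebf1, while for Usp2 the low arrays of each diet lie below its high arrays.

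Complete separation in both diets was rare. In 32 genes (0.261%) every low array of a diet lay above every high array of that diet, in both diets, and in 15 genes (0.122%) every low array lay below. The genes named next did not pass the test and were chosen by their small p, so their separation is a description. Ppp1r3c encodes a subunit that brings protein phosphatase 1 to glycogen. Its level was 12.03, 11.93, 12.10 and 12.10 in control animals 1 to 4, 11.64, 11.67, 11.78 and 11.84 in control animals 5 to 8, and 11.90 and 12.17 in PIO animals 9 and 10. The high PIO arrays ran from 11.62 through a median of 11.76 to 11.85. Both diets thus separated, with a difference of 0.31 (SE 0.053, adjusted p = 0.0943). B4galt4, a galactosyltransferase, differed by -0.47 (SE 0.077, adjusted p = 0.0909) and Plpp6, a lipid phosphatase, by -0.23 (SE 0.039, adjusted p = 0.0909). Among the 12 lowest p-values in the lower direction were also Arhgap31, which switches off the GTPases Rac and Cdc42, at -1.19 (SE 0.22, adjusted p = 0.146), and Kcna4, a potassium channel, at -0.34 (SE 0.072, adjusted p = 0.211). The separation in both diets held for each of these 4 genes.

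In control animals alone 4 genes passed the test, 3 higher (0.0245%) and 1 lower (0.00815%) in arrays 1 to 4. The 3 higher genes were Abca1, Scd1 and Ccdc80, and the lower one was St6galnac3. At an unadjusted p under 0.05, 589 genes were higher (4.80%) and 177 lower (1.44%). All 4 low arrays lay above all 4 high arrays in 349 genes (2.85%) and below them in 113 (0.921%). Abca1 and Scd1 had been singled out for this pattern in an earlier look at these arrays, so their place among all genes is given as a description and not as independent support.

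Abca1 encodes the transporter that passes cellular cholesterol and phospholipid to apolipoproteins. Its level was 11.60, 11.61, 11.50 and 11.44 in control animals 1 to 4 and 10.50, 10.72, 10.61 and 10.75 in control animals 5 to 8. It was 10.62 in PIO animal 9 and 11.04 in PIO animal 10, and the high PIO arrays had a lowest value of 10.35, a median of 10.59 and a highest of 11.00. The 4 low control arrays stood above the other 12, and the low PIO arrays did not join them. The difference was 0.89 in control animals (SE 0.072, 1.86-fold, adjusted p = 0.0065) and 0.22 in PIO animals (SE 0.19, adjusted p = 0.717). With diet as a term it was 0.60 (SE 0.13, adjusted p = 0.211). All 3 probe sets had the same sign.

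Scd1 encodes stearoyl-CoA desaturase, which places the double bond in newly made fatty acids. Its level was 12.53, 12.63, 12.74 and 12.77 in control animals 1 to 4 and 11.74, 11.76, 11.85 and 11.84 in control animals 5 to 8. PIO animals 9 and 10 were at 11.89 and 11.96, and the high PIO arrays ran from 11.67 through a median of 11.81 to 12.05. Again only the low control arrays stood apart from all others in these data. The difference was 0.87 in control animals (SE 0.065, 1.83-fold, adjusted p = 0.0065) and 0.10 in PIO animals (SE 0.10, adjusted p = 0.739), and 0.54 with diet as a term (SE 0.11, adjusted p = 0.200). The array range difference of Scd1 was itself different between the diets, by -0.77 in PIO minus control (SE 0.12, adjusted p = 0.0453). Scd1 had been singled out on these same control arrays, so this p is also no independent support. The endothelial list mean was also used as a covariate, an alternative chosen after seeing the data. Scd1 was then at 0.76 with diet as a term (SE 0.099, adjusted p = 0.0200) and passed, and Abca1 was at 0.82 (SE 0.13, adjusted p = 0.0678). That list mean was -0.60 and -0.54 in PIO animals 9 and 10 and between -0.16 and 0.28 in all other arrays. The covariate thus largely sets apart the low PIO arrays, which lacked the high Scd1 level. The pass is therefore no independent support. For Abca1 the difference between diets was -0.68 (SE 0.21, adjusted p = 0.499).

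Srebf1 encodes the transcription factor that drives fatty acid synthesis and is itself an LXR target. Its level was 10.39, 10.23, 10.24 and 10.37 in control animals 1 to 4 and 9.46, 9.71, 9.43 and 9.79 in control animals 5 to 8. PIO animals 9 and 10 were at 9.50 and 9.82, and the high PIO arrays ran from 9.30 through a median of 9.64 to 9.91. Its array pattern was that of Abca1 and Scd1, with a difference of 0.71 in control animals (SE 0.092, adjusted p = 0.108) and 0.05 in PIO animals (SE 0.17, adjusted p = 0.928). Within the most frequent array code, with 3 low and 2 high control arrays, the control differences were 0.96 for Abca1 (SE 0.089, adjusted p = 0.413), 0.88 for Scd1 (SE 0.079, adjusted p = 0.413) and 0.70 for Srebf1 (SE 0.10, adjusted p = 0.515). With the code as a block the control differences of Abca1 and Scd1 were 0.92 and 0.89, each with an adjusted p of 0.0584, and 0 genes passed by limma, with 1108 at an unadjusted p under 0.05. Without control animal 7 the adjusted p was 0.0569 for Abca1 and 0.0508 for Scd1, and without control animal 1 it was 0.0529 for Abca1.

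The promoters of these genes are shown because several members of the lipid lists were high in the same arrays. RefSeq promoters of build GRCm38.p6, from 250 bases before to 50 after the start, were matched for 22 of the 30 measured members of the LXR target and fatty acid lists. Scd1 was among the members without a promoter entry, so its promoter was not searched. A direct repeat with 4 bases between its arms, written NGGTNANNNNNGGTCA and searched on both strands, was found in the promoters of 4 of those 22 genes. It lies in 68 of 32851 promoters overall (0.207%). The letters were chosen to fit known LXR-responsive repeats, so a match describes these windows and is no evidence of binding. The promoter of Abca1, on the minus strand at chr4:53159846-53160145, holds the match at positions -67 to -52 from the start, given in capitals in the strand of the gene.
Abca1: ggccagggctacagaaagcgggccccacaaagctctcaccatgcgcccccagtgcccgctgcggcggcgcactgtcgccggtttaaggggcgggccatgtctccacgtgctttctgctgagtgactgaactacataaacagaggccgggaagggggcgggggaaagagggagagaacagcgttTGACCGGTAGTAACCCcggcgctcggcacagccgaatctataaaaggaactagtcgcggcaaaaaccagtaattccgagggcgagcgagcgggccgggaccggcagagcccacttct

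For the other 3 genes, 60 bases around the match are given. They are Srebf1 at chr11:60210616-60210675 on the minus strand, Fasn at chr11:120824735-120824794 on the minus strand and Acsl3 at chr1:78657691-78657750 on the plus strand, each read 5′ to 3′ in the strand of the gene, with the match in capitals.
Srebf1: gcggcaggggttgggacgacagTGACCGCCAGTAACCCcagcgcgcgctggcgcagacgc
Fasn: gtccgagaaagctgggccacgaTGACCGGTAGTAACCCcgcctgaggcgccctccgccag
Acsl3: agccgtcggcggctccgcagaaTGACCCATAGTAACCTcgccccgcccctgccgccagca

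The 16 capital letters of Abca1 and Fasn are identical. The E-box CACGTG, the element read by clock proteins and by SREBP-like factors, was in the promoters of 3 of the 22 genes (Abca1, Elovl4, Elovl5) and in 7.15% of all promoters.

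Among LXR target genes, 13 were measured. In control animals 7 were higher in low arrays at an unadjusted p under 0.05 and 0 were lower, with a list median of 0.22 beside 0.018 for all genes, and 6 of the 13 had all low arrays above all high ones. Besides Abca1, Scd1 and Srebf1, these were led by Apoc1, a small apolipoprotein, at 0.73 (adjusted p = 0.640). Abcg1, a partner transporter that loads cholesterol onto lipoproteins, was at 0.23 (adjusted p = 0.694), and Lpcat3, which remodels phospholipids, at 0.36 (adjusted p = 0.694). In PIO animals 0 members were higher at that p and 2 were lower, with a median of 0.062 beside -0.029. Those 2 were Pltp, the phospholipid transfer protein, at -0.73 (adjusted p = 0.488) and Smpdl3a at -0.25 (adjusted p = 0.422). With diet as a term 8 were higher and 1 lower, with a median of 0.16. The receptors and partners themselves, of which 5 were measured, had a median of 0.0012, with 0 of the 5 past an unadjusted p of 0.05 and 0 past the adjusted one by limma in the fit with diet as a term.

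Fatty acid synthesis and desaturation had 20 measured members, 3 of them also on the LXR list. In control animals 8 were higher at an unadjusted p under 0.05 and 0 lower, with a median of 0.14, and 8 of the 20 separated with all low arrays above. Fads2, which makes polyunsaturated fatty acids, was at 11.16, 11.17, 11.16 and 11.23 in control animals 1 to 4 and at 10.85, 10.89, 10.73 and 10.91 in control animals 5 to 8. PIO animals 9 and 10 were at 10.92 and 10.96, between the control ranges, and the high PIO arrays ran from 10.73 through 10.89 to 11.02. The difference was 0.34 in control animals (SE 0.055, adjusted p = 0.340) and 0.07 in PIO animals (SE 0.087, adjusted p = 0.782). Fasn, the fatty acid synthase, was at 0.19 (SE 0.052, adjusted p = 0.681) in control animals and Scd2, the main brain desaturase, at 0.16 (SE 0.047, adjusted p = 0.681). The fatty acid elongases Elovl5 and Elovl2 were at 0.20 and 0.25 there.

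Acsl3, which activates long-chain fatty acids, had another array pattern. Its level was 12.47, 12.38, 12.29 and 12.28 in control animals 1 to 4, 12.12, 12.08, 12.09 and 12.20 in control animals 5 to 8, and 12.36 and 12.47 in PIO animals 9 and 10. The high PIO arrays ran from 11.99 through a median of 12.08 to 12.42. Here the low PIO arrays lay with the low control arrays, and PIO animal 16, at the top of the high PIO range, overlapped them. The difference was 0.24 in control animals (SE 0.059, adjusted p = 0.668) and 0.31 in PIO animals (SE 0.11, adjusted p = 0.433). Acly, which supplies the acetyl-CoA, was at -0.0052 in control animals and 0.22 in PIO animals (adjusted p = 0.291), with both low PIO arrays above every high PIO array.

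Taking both lists as 1 set of 30 genes, 25 were higher and 5 lower in control animals, with a median of 0.15, and 23 were higher in PIO animals, with a median of 0.068. Over all 12266 genes, 7195 were higher in control animals and 5059 in PIO animals. Without Abca1 and Scd1 the medians of the other 28, Srebf1 among them, were 0.14 and 0.061. The lists and their members were chosen with earlier results of these data known, so these medians are a description and no independent support. The difference between diets passed the test for Scd1 and for no other member of the set. Cholesterol synthesis and uptake genes, the Srebf2 branch, did not share the direction. Of 20 measured, 0 were higher and 2 lower in control animals at an unadjusted p under 0.05, with a median of -0.024, and 0 were past it in PIO animals. Fdps, which makes farnesyl diphosphate, had the smallest p of the list with diet as a term and was at -0.19 in control animals and -0.17 in PIO animals. Of 21 PPAR target genes, 3 were higher and 0 lower with diet as a term at an unadjusted p under 0.05, with a median of 0.0089. The shares over all genes in that fit were 5.71% higher and 4.48% lower. The 3 were Fabp7 (0.37), a fatty acid binding protein of astrocytes and their precursors, Lpl (0.27), a lipase, and Pdk4 (0.29), which slows glucose oxidation.

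**Figure D2:**
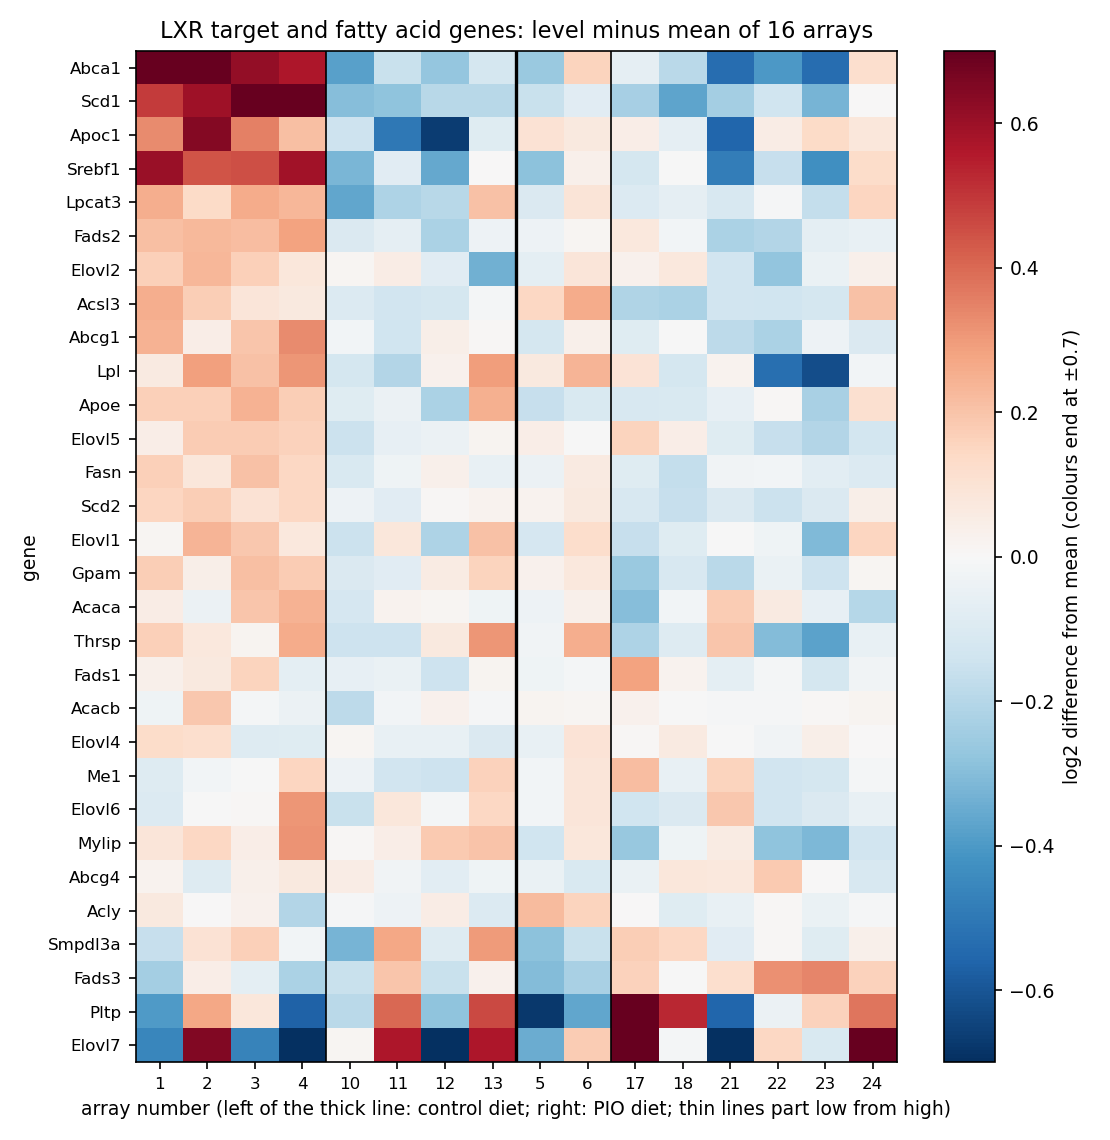
Level of the 30 measured LXR target and fatty acid genes in each array, as the log2 difference from the mean of 16 arrays, with genes as rows ordered by their control difference and arrays as columns, control diet on the left of the thick line and PIO on the right. Through this order the upper rows are red in control arrays 1 to 4 and not in control arrays 10 to 13. Among PIO arrays the low numbers 5 and 6 are not set apart in those rows, which were placed by the control difference alone. Of all 30 genes, 23 were higher and 7 lower in low than in high PIO arrays.

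Microglial markers were also higher in the low control arrays, without passing the test. Of 24 measured, 23 were higher in control animals 1 to 4 than in control animals 5 to 8, 7 of them at an unadjusted p under 0.05 and 0 past the adjusted one, with a list median of 0.29. Over all genes, 7195 of 12266 were higher there, with a median of 0.018. The list mean per array, as a deviation from the mean of all arrays, was 0.18, 0.18, 0.39 and 0.19 in control animals 1 to 4 and -0.21, -0.17, -0.11 and 0.36 in control animals 5 to 8. Control animal 8 was thus within the low range for microglial markers, while its Abca1 and Scd1 lay with the other high arrays. In the other control animals the list mean parted low from high arrays, so as a covariate it overlaps with the range. Whether microglial content has a part in the Abca1 and Scd1 differences was not tested. With the microglial list mean as a covariate, an alternative chosen after seeing the data, the control difference was 0.83 for Abca1 (SE 0.090, adjusted p = 0.138) and 0.82 for Scd1 (SE 0.082, adjusted p = 0.138). Tmem119 and P2ry13, defining microglial genes, were at 0.49 and 0.22 in control animals (adjusted p of 0.681 and 0.694). Complement and inflammation genes had a control median of 0.29 and a PIO median of -0.058. In bulk tissue, fewer cells of a type and less RNA per cell cannot be told apart.

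Ccdc80, a secreted matrix protein, passed the test in control animals. Its level was 8.71, 8.35, 8.79 and 8.68 in control animals 1 to 4 and 6.87, 7.50, 6.99 and 7.44 in control animals 5 to 8. PIO animals 9 and 10, at 8.37 and 8.65, were at the level of low controls, but the high PIO arrays, with a median of 8.19, ran from 5.74 to 8.66 and overlapped them. The difference was 1.43 (SE 0.16, adjusted p = 0.0478) in control animals and 0.70 (SE 0.67, adjusted p = 0.733) in PIO animals. St6galnac3, a sialyltransferase, was at 8.53, 8.65, 8.66 and 8.70 in control animals 1 to 4 and at 9.26, 9.11, 9.11 and 9.14 in control animals 5 to 8. It was lower by 0.52 in low than in high control arrays (SE 0.059, adjusted p = 0.0478) and differed by 0.12 in PIO animals (SE 0.13, adjusted p = 0.774). The PIO arrays all lay between 8.36 and 8.80, as did the low control arrays, so the high control arrays stood apart from all others. Leaving out any 1 of the 8 control animals ended the call of St6galnac3 (adjusted p of 0.117 to 0.245) and that of Ccdc80 (0.0674 to 0.285). A limma fit of all 16 arrays in 4 groups was chosen after seeing the data. In it the control adjusted p was 0.712 for Ccdc80 (SE 0.46), 0.162 for St6galnac3 and 0.0642 for Abca1. Only Scd1 passed there (0.000171).

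In PIO animals alone, 2 low arrays against 6 high, 5 genes passed the test, all lower in the low arrays (0.0408%). At an unadjusted p under 0.05, 385 genes were higher (3.14%) and 851 lower (6.94%), and both low arrays lay below all 6 high arrays in 954 genes (7.78%). With a common median the split was 971 higher of 1364, and after quantile normalization 712 of 1265. The 5 genes were Emcn, Adgrf5, Cd99, Fmod and Gm19531, a predicted gene. The count was 32 without PIO animal 13 and 1 without PIO animal 11 or 15. Emcn encodes endomucin, a surface mucin of venous and capillary endothelium. Its level was 6.31 and 6.43 in PIO animals 9 and 10 and ran from 7.35 through 7.45 to 7.50 in the high PIO arrays. In control animals it was 7.38, 7.37, 7.63 and 7.51 in the low arrays and 7.27, 7.69, 7.31 and 7.13 in the high ones, so PIO animals 9 and 10 lay below all 14 other arrays. Emcn fell by 1.06 in low PIO arrays (SE 0.068, 2.09-fold, adjusted p = 0.00244) and differed by 0.12 in control animals (SE 0.12, adjusted p = 0.948). The difference between diets was -1.19 (SE 0.15, adjusted p = 0.0150). With the array code as a block, and within the most frequent code, Emcn was at -1.08 in PIO animals (SE 0.077, adjusted p = 0.0790), and 0 genes passed by limma, with 1024 at an unadjusted p under 0.05.

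Most other endothelial markers were low in the same pair of arrays, though Emcn was the only 1 of the list to pass the test. Of 16 measured markers, 12 were lower in low PIO arrays at an unadjusted p under 0.05 and 0 were higher, and 12 had both low arrays below all high ones, with a median of -0.70 beside -0.029 for all genes. In control animals the median was -0.036, with 1 higher and 0 lower. The list mean was -0.60 and -0.54 in PIO animals 9 and 10 and between -0.16 and 0.28 in the other 14 arrays. Vwf, the von Willebrand factor of endothelium, was at 5.39 and 5.31 in PIO animals 9 and 10, against 7.27 to 8.67 in the high PIO arrays, with a median of 8.48, and 6.87 to 7.88 in control animals. The difference between diets passed for Vwf (-3.16, SE 0.48, adjusted p = 0.0453), while its PIO difference of -2.83 did not (SE 0.38, adjusted p = 0.0651). In a limma fit of all 16 arrays in 4 groups, chosen after seeing the data, that PIO difference passed (SE 0.36, adjusted p = 0.00549), and that of Fmod did not. Cldn5, the tight junction protein of brain vessels, was at 8.72 and 8.73 in PIO animals 9 and 10 and at 8.97 or more in every other array (difference -0.71, SE 0.19, adjusted p = 0.308). Adgrf5, an adhesion receptor of endothelium, fell by 0.88 (SE 0.086, adjusted p = 0.0217) and Cd99, a surface protein used in leukocyte passage, by 0.67 (SE 0.075, adjusted p = 0.0451). The call was lost in 12 of 23 alternatives for Adgrf5, 16 of 22 for Cd99 and 18 of 23 for Fmod. It was lost in 8 of 22 for Gm19531 and 4 of 21 for Emcn. The direction was kept in each of these alternatives. Emcn was not among the genes fitted without probe sets of shared sequence or with the stricter level filter. Neither setting therefore tested its PIO difference or its difference between diets. Pericyte and smooth muscle markers, the other cells of the vessel wall, were low there too. All 11 were negative in PIO animals, 4 at an unadjusted p under 0.05, with a median of -0.34, beside 7207 negative of 12266 over all genes. Their list mean was -0.21 and -0.41 in PIO animals 9 and 10 and -0.15 or more in every other array. Their part in the endothelial result was not tested. In all, 3 genes passed the test of a difference between diets (Emcn, Vwf and Scd1), each lower in PIO minus control (0.0245%). At an unadjusted p under 0.05 that difference was higher in 134 of 792 genes, in 275 of 683 after quantile normalization and in 380 of 699 with a common median. The call of Scd1 was lost without any 1 of 13 animals and that of Vwf without any 1 of 12, and that of Emcn without control animal 5 (adjusted p = 0.0570), control animal 7 (0.0582) or PIO animal 9 (0.101).

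**Figure D3:**
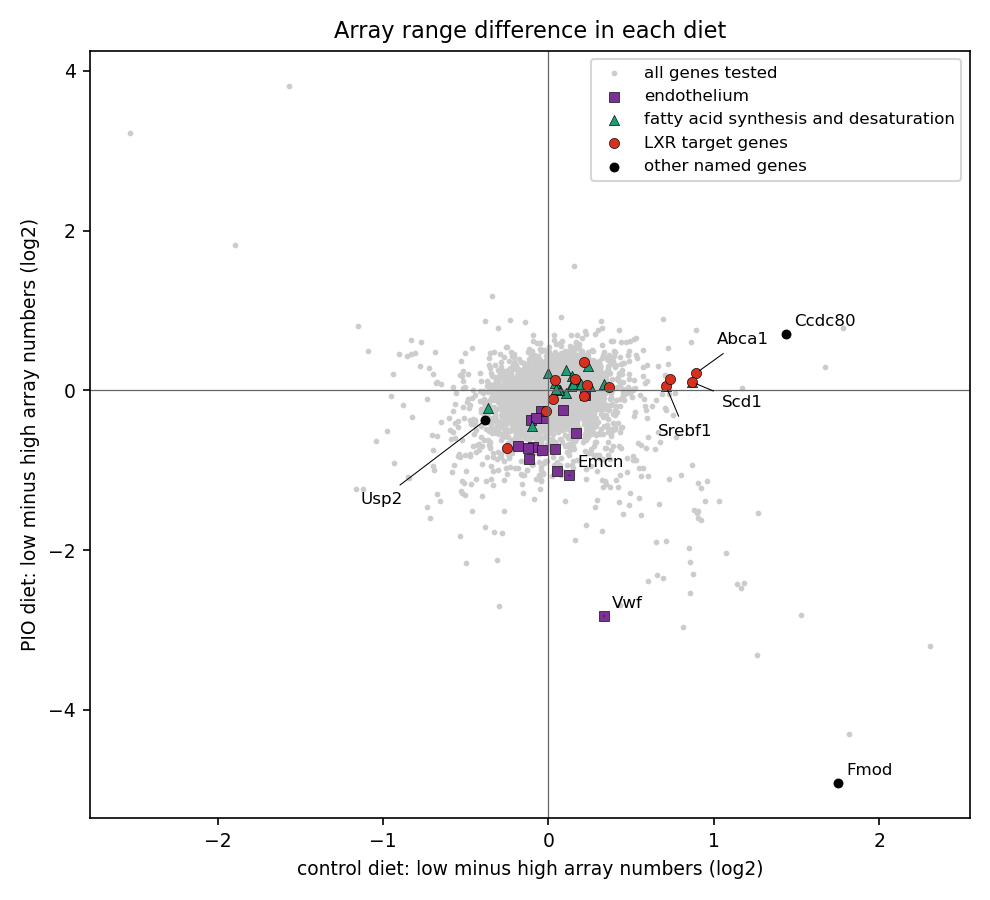
Low minus high difference (log2) in the control diet on the horizontal axis and in the PIO diet on the vertical axis, 1 point per gene, for the 12266 genes tested, with LXR target, fatty acid and endothelial genes marked. Abca1, Scd1 and Srebf1 lie far to the right near the horizontal line, and endothelial genes such as Emcn and Vwf lie below it near the vertical line.

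Leptomeningeal and choroid plexus markers, tissues that border the hippocampus, varied between arrays by more than any other list. Fmod, a collagen-binding proteoglycan of the meninges, was at 4.50 and 4.58 in PIO animals 9 and 10 and ran from 7.87 through 9.64 to 10.56 in the high PIO arrays. It was also at 4.40 in control animal 4, against 9.62, 9.07 and 10.02 in control animals 1 to 3, and at 5.92, 9.54, 5.00 and 5.66 in control animals 5 to 8. Low values therefore occurred in both ranges of the control diet. Fmod fell by 4.91 in low PIO arrays (SE 0.56, adjusted p = 0.0462). Over 14 leptomeningeal markers the median was 0.83 in control animals, with 0 past an unadjusted p of 0.05, and -1.62 in PIO animals, with 9 lower. With the leptomeningeal list mean as a covariate, also chosen after seeing the data, Emcn differed by -1.10 in PIO animals (SE 0.12, adjusted p = 0.110) and 0 genes passed, with 2024 at an unadjusted p under 0.05. The choroid plexus list mean was under -2 in control animals 1, 4, 5 and 7 and in PIO animals 9 and 13, and above 0 in the others. Striatal markers were highest in PIO animals 14 and 15, with list means of 0.56 and 0.67, against 0.27 or less elsewhere. Without PIO animals 14 to 16, Emcn was at -1.12 (adjusted p = 0.201) and 0 genes passed, with 753 at an unadjusted p under 0.05. With the choroid plexus list mean as a covariate Emcn was at -1.07 (adjusted p = 0.00752) and 17 genes passed, and with the striatal one it was at -1.09 (adjusted p = 0.0150) and 1 gene passed.

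**Figure D4:**
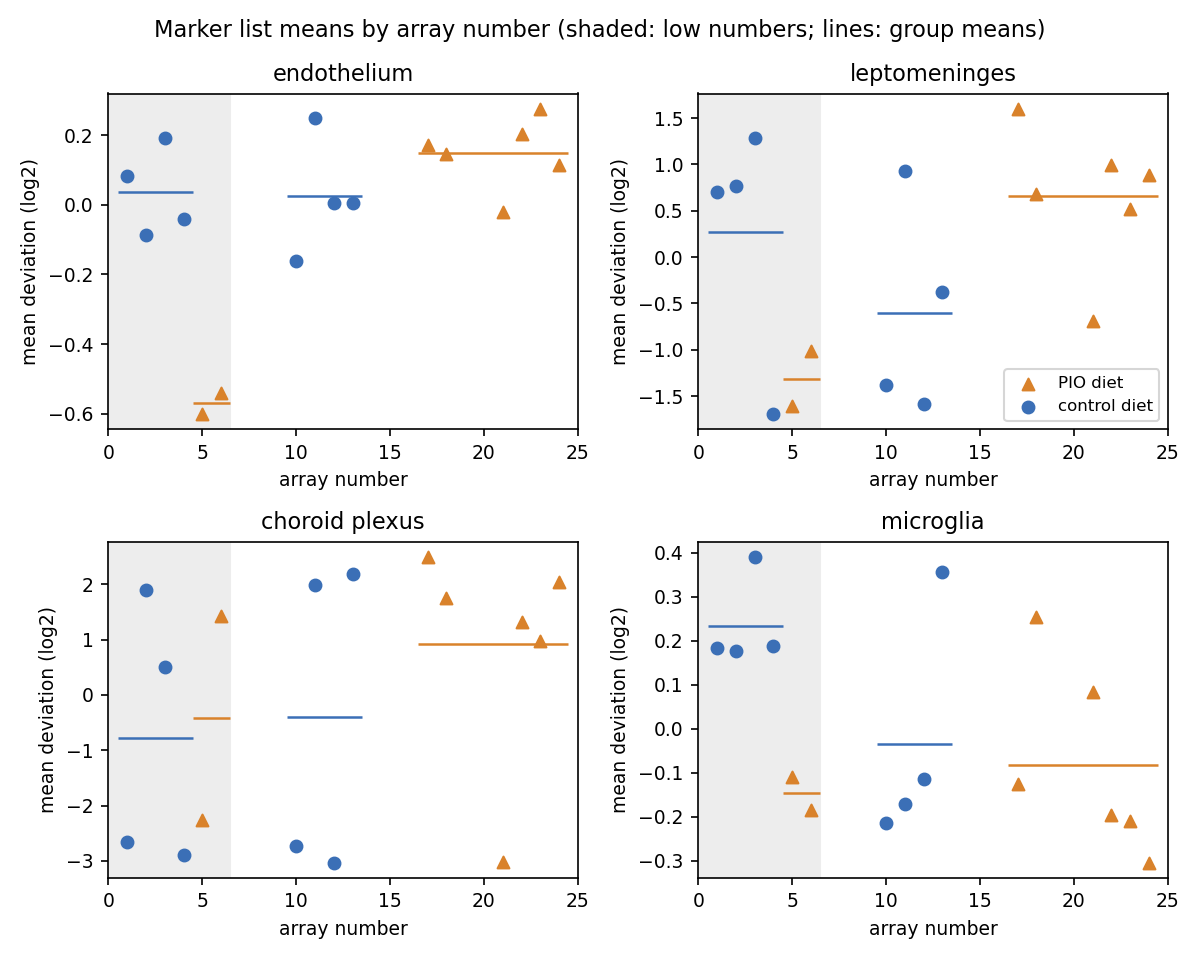
Mean of each marker list per array, as the log2 deviation from the mean of all arrays, against array number, for endothelium, leptomeninges, choroid plexus and microglia, with circles for control, triangles for PIO and lines for group means. Endothelial markers are low in PIO arrays 5 and 6, at -0.60 and -0.54, while leptomeningeal and choroid plexus markers are low in arrays of both ranges.

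Of 22 circadian clock genes, 2 were lower and 0 higher with diet as a term at an unadjusted p under 0.05, with a median of -0.11. They were Usp2 and Dbp, a clock output factor. At that p, 4.48% of all genes were lower and 5.71% higher. Dbp was at 11.82 and 11.44 in PIO animals 9 and 10, where the high PIO arrays ran from 11.77 through 12.13 to 12.22. In control animals it was at 12.05, 11.94, 11.93 and 11.97 in low arrays and 12.16, 12.51, 12.01 and 11.85 in high ones, so both diets overlapped (difference with diet as a term -0.29, SE 0.10, adjusted p = 0.367). Per1, which represses its own clock and responds to glucocorticoid, differed by 0.06 in control animals (SE 0.090, adjusted p = 0.973) and by -0.51 in PIO animals (SE 0.10, adjusted p = 0.226). In PIO animals 5 clock genes were lower and 0 higher at that p, beside 6.94% and 3.14% of all genes. In control animals 1 was higher and 1 lower, beside 4.80% and 1.44%. The core genes Arntl, Clock, Per2 and Nr1d1 differed by -0.16, 0.05, -0.04 and -0.08 with diet as a term, each with an adjusted p of 0.620 or more.

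Of 22 glucocorticoid-induced genes, 19 were higher with diet as a term, beside 6037 of 12266 over all genes. Of the 19, 5 were at an unadjusted p under 0.05 and 0 past the adjusted one, where 5.71% of all genes were higher at the unadjusted p. The list median was 0.15 in both that fit and the control animals, and 0.095 in PIO animals. At an unadjusted p under 0.05, 6 members were higher and 0 lower in control animals, and 0 were higher and 2 lower in PIO animals. The low PIO arrays differed from each other, with list means of -0.19 in PIO animal 9 and 0.39 in PIO animal 10. Errfi1, an inhibitor of EGF receptor signalling, led at 0.28 (SE 0.076, adjusted p = 0.241). Fkbp5, the glucocorticoid receptor co-chaperone, was at 0.26 (SE 0.10, adjusted p = 0.406), and Ddit4, a brake on mTOR, at 0.26 (adjusted p = 0.440). Sgk1, a kinase of the same response, was at 0.51 in control animals (adjusted p = 0.792) and 0.02 in PIO animals (adjusted p = 0.985).

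Of 68 oxidative phosphorylation genes, 6 were lower and 0 higher with diet as a term at an unadjusted p under 0.05, with a median of -0.016. Beside this and the next counts, 4.48% of all genes were lower and 5.71% higher in that fit. Cytosolic ribosomal protein and heat shock genes had 0 past an unadjusted p of 0.05 in that fit, with medians of 0.0017 and 0.013. Of 23 potassium channel genes 4 were higher and 2 lower, among them Kcnj10, the glial inward rectifier, at 0.20 (adjusted p = 0.297), and the median was 0.053. Of 22 myelin genes 3 were higher, and the median was -0.049 in control and 0.20 in PIO animals. MHC class I and interferon genes had 10 of 20 lower and 0 higher in PIO animals, with a median of -0.27 beside -0.029 for all genes and 8 with both low arrays below all high ones, and 0 lower and 2 higher in control animals, with a median of 0.13.

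**Figure D5:**
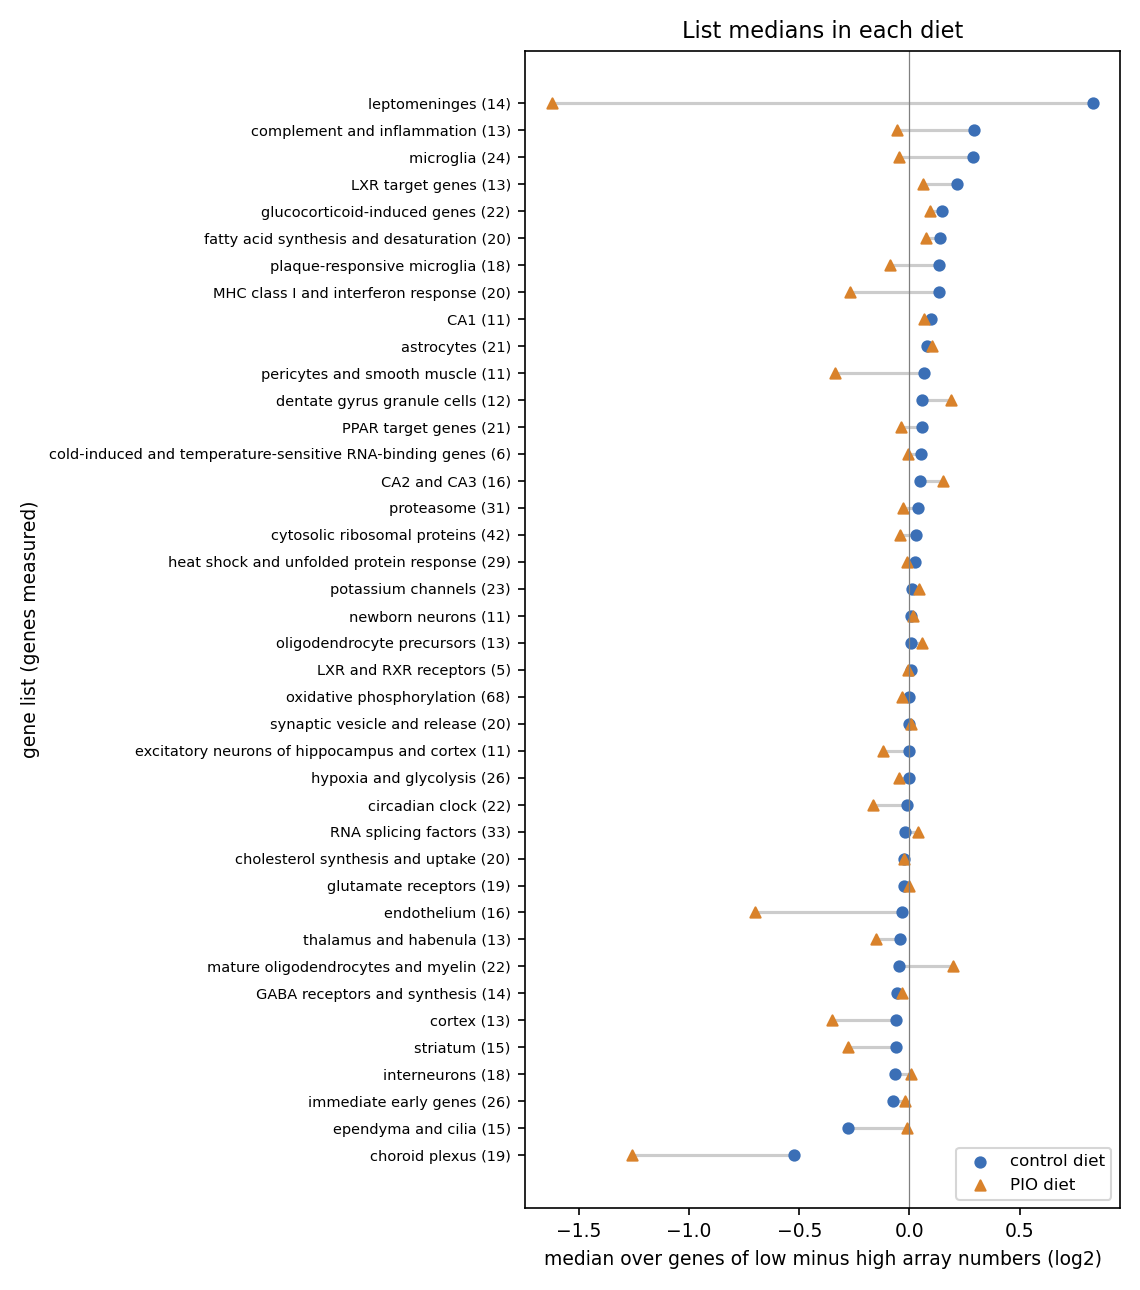
Median over the measured genes of each list of the low minus high difference (log2), with circles for the control diet and triangles for the PIO diet, and the number of genes measured in brackets. Leptomeninges, choroid plexus and endothelium have the widest gaps between diets, with 0.83 against -1.62, -0.53 against -1.26 and -0.036 against -0.70, and most pathway lists lie near 0 in both.

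The diet itself was fitted with array range as a term. Of 12266 genes 0 passed the test by limma, with a smallest adjusted p of 0.454, and 807 had an unadjusted p under 0.05. For Abca1 the PIO minus control difference in that fit was -0.27 (SE 0.13, adjusted p = 0.754) and for Scd1 it was -0.25 (SE 0.11, adjusted p = 0.739). For both genes the low PIO arrays lay below all low control arrays, while the high arrays of the diets overlapped. These values therefore describe neither range by itself. Only 2 of 8 PIO animals had low array numbers, so the diet estimate in low arrays rests on them.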

How the data were processed

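Each of 16 hippocampi was hybridised to 1 Affymetrix array, and the labels number every subject separately. The deposited values are on a log2 scale, from 0.33 to 16.6, as the authors made them. MAS5, GCRMA and R 2.7.1 are named, per the submitters' processing notes, without saying which step made these values, and any floor is unstated. The arrays' number limits the precision.

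Of 45101 probe sets, 64 controls were left out, 34945 had 1 gene symbol in the platform annotation, 932 several and 9160 none. Of the 34945, 34741 had an Entrez ID in the RefSeq table. Probe sets above the 40th percentile of mean level (3.58) were kept, and the probe set of highest mean stood for its gene, which left 12266 genes. limma 3.58.1 in R 4.3.3 (lmFit, eBayes, Benjamini-Hochberg) fitted low minus high array numbers with diet as a term, in each diet alone, and with an interaction. The script was tested on simulated data.

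Abca1 and Scd1 were always named, with the 12 higher and 12 lower genes of smallest p with diet as a term, 6 and 6 in the control diet, up to 3 members of each of 42 lists and up to 5 genes whose difference between diets passed. Other list members were named after their values were seen. The members and lists were chosen with earlier results of these data known. Filters, probe set choice, normalization, the array code, the prior, array weights, marker covariates and left-out animals were varied. The microglial, leptomeningeal and endothelial covariates and a fit of 4 groups were chosen after seeing the data. Promoter sequences are from RefSeq, GRCm38.p6. The labels do not define the array number or the array code. A further allele of the strain is not reported here.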

Additional observations from a re-analysis of the deposited data

Results flagged for a closer look

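In 3 genes the low minus high difference itself differed between the diets (PIO minus control, limma interaction, 16 arrays), by -1.19 for Emcn, -3.16 for Vwf and -0.768 for Scd1, on the log2 scale. Scd1 had been singled out in an earlier look at these arrays, so its value is a description.

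In 234 groups, from 38 named genes and 40 list means, 16 held a sample whose gap to its nearest neighbour was a large share of the range of the group, past Dixon's 95% critical value. Chance gives about 5% of groups, or 11.7 here. Among low control arrays, that share was 0.879 for Usp2 (control 2 at 10.74, group median 10.98), 0.849 for Tigd5 (control 3 at 7.11), 0.989 for Ltbp4 (control 3 at 8.65), 0.83 for Fmod (control 4 at 4.40) and 0.944 for the microglial list mean (control 3 at 0.39). Among high control arrays it was 0.844 for Spata5 (control 7 at 8.14), 0.865 for Mycl (control 7 at 7.55), 0.952 for the mean of LXR and RXR receptors (control 5 at -0.018), 0.889 for heat shock and unfolded protein genes (control 7 at -0.13) and 0.831 for complement and inflammation genes (control 8 at 0.38). Among high PIO arrays it was 0.729 for Timmdc1 (PIO 12 at 8.83), 0.677 for B4galt4 (PIO 11 at 8.49), 0.704 for Ccdc80 (PIO 11 at 5.74), 0.691 for glucocorticoid-induced genes (PIO 16 at 0.22), 0.727 for the choroid plexus (PIO 13 at -3.02) and 0.773 for newborn neuron markers (PIO 12 at 0.20).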

How the results depend on the processing

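Counts of genes past an adjusted p of 0.05 moved with many settings, and unless the setting itself removed samples or genes, the cause was not tested. With diet as a term (1 gene) the count was 0 without probe sets of shared sequence, with a common median, within the most frequent array code, without PIO animals 14 to 16 and with the microglial covariate, 2 after quantile normalization and with the code as a block, 3 without a diet term, 3 with the array number as a number and 7 with array weights, and 0 to 3 with 1 animal left out. In control animals (4 genes) it was 0 with the code as a block, within 1 code and with the microglial covariate, 1 in a fit of 4 groups, 2 with no filter and with the choroid plexus, striatum or leptomeningeal covariate, and 0 to 2 with 1 animal left out (0 without control 7). In PIO animals (5 genes) it was 0 with the code as a block, within 1 code, without PIO animals 14 to 16 and with the leptomeningeal covariate, 1 with the striatum covariate, 2 without shared sequences and after quantile normalization, 3 with a trended robust prior, 7 in a fit of 4 groups, 8 with a filter at the 60th percentile, 17 with the choroid plexus covariate, 50 with array weights, and 1 to 32 with 1 animal left out. For the difference between diets (3 genes) it was 0 without shared sequences, within 1 code, with the striatum covariate and without PIO animals 14 to 16, 1 with no filter and after quantile normalization, 6 with array weights, 7 with the choroid plexus covariate, and 0 to 4 with 1 animal left out. The diet term had 0 genes in each alternative run. Of 1354 values for single genes, 1175 kept direction and side of the threshold, 159 lost the call, 16 gained it and 4 turned. Tigd5 was at -0.084 without shared sequences, and Srebf1 in PIO animals at -0.044 with the striatum covariate, -0.11 without PIO animal 10 and -0.0097 without PIO animal 13, in a range of -0.11 to 0.21 with 1 animal left out. Of 1240 list medians, 10 moved by more than their spread between animals, among them endothelium at -0.19 without PIO animal 9. No paired analysis was possible because each subject number occurs once and the groups share none. Only 2 PIO arrays were low, and arrays give no count or depth behind a value, so their number limits the precision.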
